A study of Mus musculus with 12 samples.

Results

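The metabotropic glutamate receptors and the GABA-B receptor were examined in adrenal glands of adult mice, on 12 Affymetrix Mouse Gene ST arrays. Of 8 receptor genes listed by symbol (Gabbr1, Gabbr2, Grm2, Grm3, Grm4, Grm5, Grm7 and Grm8), 7 had a probe set listed with that gene alone. All 7 passed the filter on dim genes and were tested among 15900 genes, and Grm8 was not analysed here. Each of the 7 genes was read by 1 probe set, so no gene level rests on a choice among probe sets. Grm3 passed the filter only through the ASP arrays, since its mean was under 6 on the log2 scale in the other pools.

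All mice were male C57Bl/6J and were killed at 21 weeks of age. ASP mice were exposed to aspartame from life in utero onwards, first through their dams and after weaning in their drinking water (46 mg/kg). ASP+CGP mice had the same exposure together with CGP 39551. CGP 39551, a competitive NMDA receptor antagonist, was given to the dams in the drinking water at 5 mg/kg, a dose set by dam body weight. CGP mice were thus exposed through their dams, from embryonic day 0 to postnatal day 28, and CON mice received neither agent. Each group was represented by a single pool, into which its mice contributed equal amounts of RNA, and 3 arrays were run per pool. The p-values therefore measure only the spread between arrays of a pool, not that between mice.

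Both receptor families belong to class C of the G protein-coupled receptors, whose large extracellular domain binds the transmitter and which work as dimers. The GABA-B receptor is an obligate heterodimer: the Gabbr1 product binds GABA, and the Gabbr2 product brings the complex to the cell surface and couples it to Gi/o proteins. Among the metabotropic glutamate receptors, group I, here Grm5, acts through Gq and phospholipase C, whereas group II (Grm2, Grm3) and group III (Grm4, Grm6, Grm7, Grm8) act through Gi/o and lower cyclic AMP. In the brain these receptors tune transmitter release and neuronal excitability. In the adrenal medulla, GABA-B receptors have been described on bovine chromaffin cells.

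Values are RMA signals on the log2 scale, on which a difference of 1 is a doubling. A signal under 6 was treated as dim, and where a group mean was dim the fold is a bound, computed with 6 in its place. A gene was called when its adjusted p was under 0.05 and its fold was at least 1.4 either way (limma, Benjamini-Hochberg over all genes tested). Signals of different probe sets were not compared with each other. Defining adrenal markers were bright in all 4 pools, with a mean log2 signal of 13.41 to 13.64 for Star and 12.97 to 13.39 for Th. The ASP pool also went against its adrenal label in part, since markers of hypothalamic neurons stood high in it. Hcrt averaged 10.67 in ASP and 6.72 in CON, and Sst 11.79 in ASP and 7.34 in CON, while the adrenal genes Cyp11b2 (11.80 in ASP, 12.47 in CON) and Phox2a (8.61 in ASP, 9.32 in CON) were lower. These are among the larger differences of their lists. In ASP against CON, 7 of 8 hypothalamic neuron markers were called higher, and 2 of 9 adrenal cortex and 2 of 8 chromaffin cell markers lower. The other 1, 7 and 6 were not called. Over all genes, 9.81% were called higher and 8.13% lower in that comparison. Arrays of a pool correlated at 0.989 to 0.995, and the ASP arrays correlated with the CON arrays at 0.926 to 0.934. The interquartile range of the signals was 2.20 to 2.29 on the ASP+CGP arrays and 2.58 to 2.62 on the CON arrays, a narrower range in ASP+CGP that bears on small differences below. In pooled tissue RNA, fewer cells of a type and less RNA per cell cannot be told apart.

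All 7 receptor genes were higher in ASP than in CON pools, and all 7 were called, against 9.81% of all genes called higher and 8.13% called lower. ASP and CON arrays did not overlap for any of the 7, as was so for 20.6% of all genes with ASP higher and 43% with ASP lower. Grm3 could pass the filter only by being high in ASP, and without it 6 of 6 were called. The median log2 difference was 2.37 over the 7 genes, 1.85 without Grm3, and -0.10 over all 15900 genes. The GABA-B subunit gene Gabbr2 had the largest difference of the 7 and Grm7 the smallest. Grm2, Grm3 and Grm5 are among the genes the study itself picked from these arrays, so their direction is not independent evidence.

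**Figure D1:**
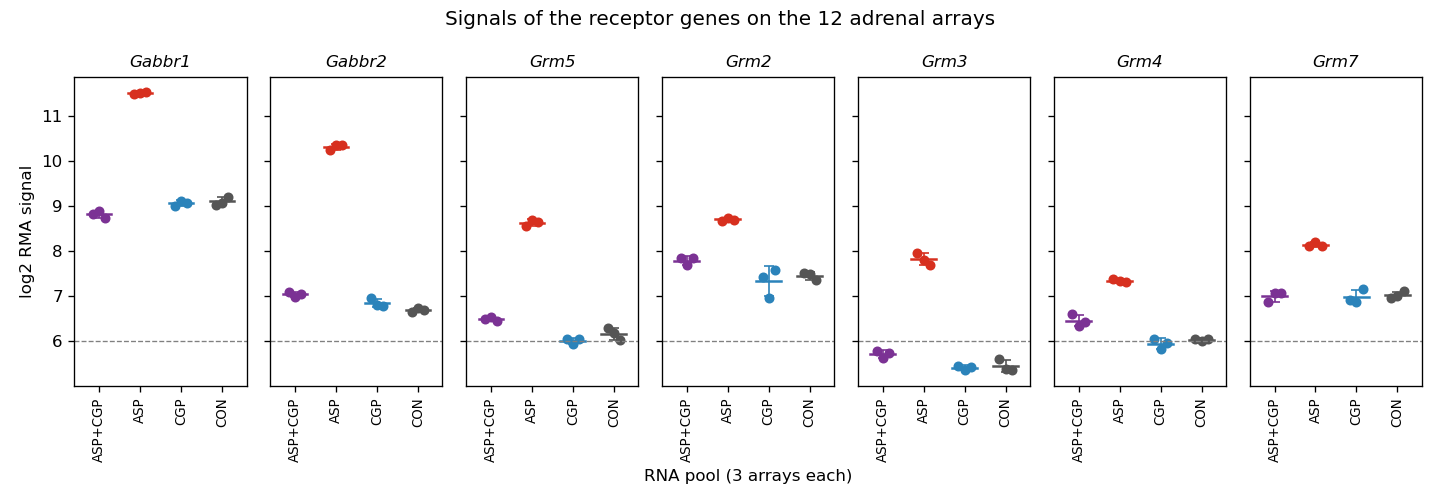
Log2 RMA signal of each receptor gene (y axis) in the ASP+CGP, ASP, CGP and CON pools (x axis). Points are the 3 arrays of a pool, horizontal bars the mean, whiskers the SD, and the dashed line the level of 6 under which a signal was treated as dim. In every panel the 3 ASP points lie above all 9 others.

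Gabbr1, the ligand-binding subunit of the GABA-B receptor, had log2 signals of 11.48, 11.51 and 11.53 on the ASP arrays, against 9.02, 9.07 and 9.20 on the CON arrays. The lowest ASP array lay well above the highest CON array, a 5.31-fold excess (2.41 ± 0.06 as a log2 difference with its SE, limma adjusted p = 2.04e-13). Gabbr2, the subunit that couples to the G protein, had 10.23, 10.34 and 10.35 in ASP, against 6.66, 6.74 and 6.70 in CON. It was 12.2-fold higher in ASP (3.61 ± 0.06, limma adjusted p = 6.74e-15). The 95% interval of the log2 difference was 2.28 to 2.54 for Gabbr1 and 3.47 to 3.74 for Gabbr2. The intervals cover array spread only and come from different probe sets, so whether the subunit transcripts changed by unequal amounts was not tested.

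The sequences before the start sites of the GABA-B subunit genes and of Grm2 are shown as a description only, so that their upstream regions can be read side by side. They are the 250 bases before the start site in RefSeq (GRCm38.p6), written 5′ to 3′ on the strand of the gene, with matches to the searched motifs in capitals. Gabbr1 lies on the plus strand (chr17:37045716-37045965), Gabbr2 on the minus strand (chr4:46991715-46991964) and Grm2 on the minus strand (chr9:106656110-106656359).
Gabbr1: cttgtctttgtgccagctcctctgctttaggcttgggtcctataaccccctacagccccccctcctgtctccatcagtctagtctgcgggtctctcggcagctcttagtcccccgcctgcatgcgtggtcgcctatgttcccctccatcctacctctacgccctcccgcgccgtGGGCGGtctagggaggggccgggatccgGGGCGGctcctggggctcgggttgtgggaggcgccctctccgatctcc
Gabbr2: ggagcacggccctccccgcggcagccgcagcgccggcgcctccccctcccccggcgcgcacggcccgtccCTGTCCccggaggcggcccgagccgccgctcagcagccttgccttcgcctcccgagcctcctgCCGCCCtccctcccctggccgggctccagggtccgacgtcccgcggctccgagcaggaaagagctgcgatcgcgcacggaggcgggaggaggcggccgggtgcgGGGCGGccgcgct
Grm2: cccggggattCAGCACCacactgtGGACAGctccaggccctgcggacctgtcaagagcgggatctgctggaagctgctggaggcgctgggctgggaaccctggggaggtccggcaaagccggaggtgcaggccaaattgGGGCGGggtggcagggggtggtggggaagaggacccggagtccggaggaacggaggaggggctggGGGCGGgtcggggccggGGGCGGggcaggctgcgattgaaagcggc

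Promoters of 5 of the 7 receptor genes were in the RefSeq table used (Gabbr1, Gabbr2, Grm2, Grm3 and, with 2 start sites, Grm7). Over the whole window of 300 bases, which adds 50 bases after the start site, these 6 windows held 61.0% to 80.3% G and C, against a median of 52.7% over all 32851 promoters of that length. Gabbr2 had 46 CpG dinucleotides, Grm2 22, Gabbr1 18, Grm3 11 and the Grm7 windows 10 and 15, against a median of 7 over all promoters. Of all promoters, 26.5% held 20 or more. The GC box GGGCGG, read on both strands, stood in all 6 windows, with 4 copies in Grm2 and 3 in Gabbr1, and in 35.7% of all promoters. The 2 Grm7 windows overlap and hold the same copy, so the 6 windows stand for 5 genes. The cyclic AMP response element TGACGTCA (1.79% of all promoters), the AP-1 motif TGAGTCA (5.20%) and the TATA box TATAAA (13.6%) were in none of the 6 windows, which says only that these letters were not there. Of the parts of the RE1 element, the motif bound by the repressor REST, CAGCACC (7.14% of all promoters) and GGACAG (22.2%), Grm2 held both and Gabbr2 held GGACAG on the opposite strand. These matches describe letters and are not evidence of binding.

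Grm5, the group I receptor coupled to Gq, had log2 signals of 8.55, 8.69 and 8.65 in ASP, against 6.29, 6.18 and 6.02 in CON. The ASP arrays lay more than 2 log2 units above the CON arrays, and Grm5 was 5.53-fold higher (2.47 ± 0.07, SE, limma adjusted p = 6.88e-13).

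The group II genes were both called higher, and whether they changed by unequal amounts was not tested. Grm2, which acts mainly as a presynaptic autoreceptor, had 8.66, 8.74 and 8.69 in ASP, against 7.51, 7.49 and 7.35 in CON, a 2.37-fold difference (1.24 ± 0.12, SE, limma adjusted p = 5.42e-07). Grm3, which in the brain is expressed by glia as well as neurons, had 7.95, 7.81 and 7.70 in ASP, against 5.60, 5.38 and 5.37 in CON. All 3 CON values of Grm3 were dim, so that the receptor gene was at least 3.53-fold higher in ASP (measured log2 difference 2.37 ± 0.08, limma adjusted p = 2.91e-12).

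The group III genes tested among the 7 were Grm4 and Grm7, whose products sit mainly at presynaptic terminals. Grm4 had 7.38, 7.33 and 7.31 in ASP, against 6.06, 6.00 and 6.06 in CON (2.46-fold, log2 difference 1.30 ± 0.07, SE, limma adjusted p = 1.08e-09). Grm7 had 8.11, 8.20 and 8.12 in ASP, against 6.97, 7 and 7.11 in CON (2.17-fold, 1.12 ± 0.08, limma adjusted p = 2.05e-08). ASP and CON arrays did not overlap for either gene. Grm6, the group III receptor of retinal bipolar cells and not among the 7 genes, had a mean of 6.28 ± 0.03 in ASP and 6.36 ± 0.02 in CON (SD, n = 3 arrays each) and was not called (log2 difference -0.08, 95% interval -0.20 to 0.04). The ASP calls of the 7 receptor genes remained under all 27 alternatives run, with log2 differences of 3.52 to 3.73 for Gabbr2 and 1.05 to 1.19 for Grm7.

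**Figure D2:**
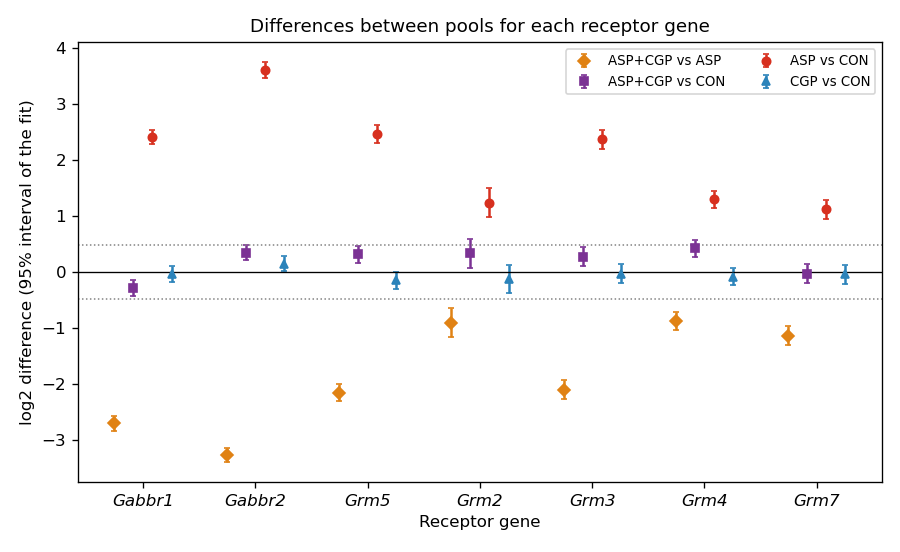
Log2 difference of each receptor gene (y axis) for ASP+CGP vs ASP, ASP+CGP vs CON, ASP vs CON and CGP vs CON, with the 95% interval of the limma fit. Dotted lines mark a 1.4-fold difference. ASP vs CON runs between 1.12 and 3.61 and ASP+CGP vs ASP between -3.26 and -0.88, while the points of both other comparisons lie within the dotted lines.

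In CGP pools none of the 7 receptor genes was called against CON by limma (1.62% of all genes were called higher and 0.0189% lower). Of the 7, 1, Gabbr2, had an unadjusted limma p under 0.05. The share of all genes at that unadjusted limit was not counted. Log2 differences lay between -0.15 (Grm5, 95% interval -0.30 to 0) and 0.15 (Gabbr2, 0.01 to 0.28). Gabbr2 had 6.95, 6.80 and 6.78 in CGP, against 6.66, 6.74 and 6.70 in CON, without overlap (10.1% of all genes did not overlap and were higher) and with an adjusted p of 0.437. Grm2 was the most scattered, at 7.43, 6.96 and 7.59 in CGP, against 7.51, 7.49 and 7.35 in CON, with the second CGP array lowest of all. Its interval, -0.38 to 0.13, was also the widest. Gabbr1 had 9, 9.11 and 9.07 in CGP, Grm3 5.46, 5.36 and 5.43, and Grm5 6.06, 5.93 and 6.05, each overlapping its CON values. Grm7 had 6.92, 6.88 and 7.16 in CGP, on both sides of its CON values. The upper and lower ends of all 7 intervals were inside a 1.4-fold change either way. The comparisons of ASP, CGP and ASP+CGP with CON all use the same 3 CON arrays.

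ASP+CGP pools, exposed to both agents, had none of the 7 receptor genes called against CON (6.09% of all genes were called higher and 8.32% lower). Of the 7, 6 had a limma adjusted p under 0.05 with a fold below 1.4. This too was common, since 11556 of all 15900 genes had an adjusted p under 0.05 at any fold, and 2292 passed with the fold limit. ASP+CGP and CON arrays did not overlap for the same 6, all but Grm7. Among all genes, 22.8% did not overlap and were higher and 52.5% did not overlap and were lower, so that separation of this kind was common. Grm4 had 6.60, 6.35 and 6.42 in ASP+CGP, against 6.06, 6.00 and 6.06 in CON (log2 difference 0.42 ± 0.07, SE, limma adjusted p = 2e-04). Gabbr2 had 7.10, 6.99 and 7.04 in ASP+CGP, against 6.66, 6.74 and 6.70 in CON (0.34 ± 0.06). Grm5 had 6.49, 6.53 and 6.44 in ASP+CGP, and Grm2 had 7.84, 7.68 and 7.84, each above the highest CON array.

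Part of these small differences lay near the median of genes of like signal. Over all genes the median log2 difference of ASP+CGP vs CON was 0.33 for genes with a CON mean under 6, 0.25 for 6 to 7, -0.06 for 7 to 8 and -0.34 for 9 to 10. Gabbr2, Grm4 and Grm5, at 0.34, 0.42 and 0.32, lie in the bin from 6 to 7, Grm3 (0.27) in the lowest, and Gabbr1 (-0.29) in the bin from 9 to 10. Grm2, in the bin from 7 to 8, stood apart from its median of -0.06 with a difference of 0.34, and Grm7 of the same bin had -0.03. Gabbr1 had 8.82, 8.88 and 8.74 in ASP+CGP, against 9.02, 9.07 and 9.20 in CON. Its sign turned to 0.06 with cyclic loess and to 0.01 with quantile normalization of the genes, and that of Grm3 turned to -0.01 with cyclic loess. Grm7 had 6.87, 7.06 and 7.07 in ASP+CGP, overlapping CON, and differed by -0.03 (95% interval -0.20 to 0.14), and by 0.13 after median centring of each array. With that centring, which moved the median of all genes by 0.16, Gabbr2, Grm2 and Grm4 passed the call, at 0.50, 0.50 and 0.58. Of all genes, 2367 were then called higher, against 969 without it.

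Set against ASP pools, ASP+CGP pools had all 7 receptor genes called lower (6 of 6 without Grm3), against 13.3% of all genes called lower and 6.55% called higher. ASP+CGP and ASP arrays did not overlap for any of the 7, as was so for 34.6% of all genes with ASP+CGP lower and 30.7% with ASP+CGP higher. Gabbr2 was 9.58-fold lower in ASP+CGP (log2 difference -3.26 ± 0.06, SE, limma adjusted p = 2.09e-14), Gabbr1 6.47-fold lower (-2.69 ± 0.06) and Grm5 4.42-fold lower (-2.15 ± 0.07). Grm3 had 5.79, 5.62 and 5.75 in ASP+CGP, against 7.95, 7.81 and 7.70 in ASP. Its ASP+CGP level was dim and at most 0.284 of that in ASP. The smallest differences were those of Grm4 (6.60, 6.35 and 6.42 in ASP+CGP, against 7.38, 7.33 and 7.31 in ASP, -0.88 ± 0.07) and of Grm2 (-0.91 ± 0.12), followed by Grm7 at -1.14 ± 0.08. This comparison shares the ASP arrays with that of ASP and CON, so the mirrored sizes are not separate evidence.

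Between the pools that both received CGP 39551, ASP+CGP and CGP, 1 of the 7 receptor genes was called, with 8.57% of all genes called higher and 11% lower. Arrays of these pools did not overlap for 23.1% of all genes with ASP+CGP higher and 52.2% with ASP+CGP lower. Grm4 had 6.60, 6.35 and 6.42 in ASP+CGP, against 6.06, 5.83 and 5.96 in CGP, a log2 difference of 0.51 ± 0.07 (SE, limma adjusted p = 3.88e-05). The CGP mean of 5.95 was dim, and the fold was at least 1.37. The call was lost with cyclic loess and with quantile normalization of the genes (0.27 in each), and without the second CGP array (0.45) or the first ASP+CGP array (0.44). Grm5 (0.47) and Grm2 (0.46) lay just under the 1.4-fold limit. Without the first CGP array both passed it (0.49 and 0.51), as they did without the third (0.49 and 0.59). Without the second ASP+CGP array Grm2 passed (0.51), and without the third Grm5 did (0.50).

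The ASP+CGP minus CGP difference minus the ASP minus CON difference was tested as an interaction. The interaction compares single pools, not mice, and reuses the arrays of the comparisons above. It was below 0 and called for all 7 receptor genes, against 15.5% of all genes called lower and 9.02% called higher. Gabbr2 had the largest value, with a difference of 0.20 between the ASP+CGP and CGP pools and 3.61 between the ASP and CON pools (interaction -3.41). For Gabbr1 the interaction was -2.66 and for Grm5 -2.00. Grm2 and Grm4, at -0.79 each, fell short when a fold of 1.8 was asked for. The order of the pools was thus the same at the top for all 7 genes, ASP being highest. Below it ASP+CGP, CGP and CON were within 0.51 log2 units of each other for each gene, and no CGP vs CON difference passed the test after adjustment.

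Genes whose products work with these receptors were counted in lists chosen by role, to be read against the 9.81% of all genes called higher and 8.13% called lower in ASP vs CON, and the 13.3% called lower in ASP+CGP vs ASP. Of 9 tested GABA-B auxiliary subunits and binding partners, 5 rose in ASP against CON and none fell, with a median of 0.63. Ajap1, a membrane protein gene whose product binds the sushi domain of the Gabbr1 product, was 6.85-fold higher, and Aplp1, of the amyloid precursor family, 3.49-fold. Of the Kctd genes, which encode cytosolic auxiliary subunits, Kctd16 was at least 1.75-fold higher, while Kctd12 (log2 difference -0.12) and Kctd8 (0.26) were not called. In ASP+CGP against ASP, 4 of the 9 were lower, led by Ajap1 (-2.49) and Aplp1 (-2.20). Of these 4, Pianp lost its call with at least 1 of the other scalings.

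Of 10 other class C receptors, only Gpr158, an orphan receptor abundant in brain that binds RGS proteins, was called in ASP, at 4.72-fold, a share near that of all genes. It was 4.76-fold lower in ASP+CGP than in ASP. The calcium-sensing receptor gene Casr differed by 0.28 and was not called. The median of the 10 was -0.06.

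Scaffolds and trans-synaptic partners of the metabotropic glutamate receptors were mixed, with 4 of 15 higher and 1 lower in ASP, and a median of 0.10. Shank1, a postsynaptic scaffold, was 5.12-fold higher, Ncdn, whose neurochondrin protein binds the Grm5 product, 3.32-fold, and Elfn2, which binds group III receptors across the synapse, 2.19-fold. Elfn1 was 1.54-fold higher in ASP and 1.5-fold higher in ASP+CGP than in CON. It differed by -0.04 between ASP+CGP and ASP, which was not called. Grasp, which encodes the receptor-trafficking scaffold tamalin, was lower in ASP by 1.68-fold. Homer1, the classical scaffold of group I receptors, had a log2 difference of -0.36 in ASP, which was not called, and was 1.72-fold lower in ASP+CGP than in CON (-0.79 ± 0.07, SE, limma adjusted p = 1.16e-06). Shank2 was higher in ASP+CGP than in CON by 0.84 ± 0.09 and had a log2 difference of 0.01 ± 0.09 in ASP, which was not called. In ASP+CGP against ASP, 4 of the 15 were lower and 1, Shank2, was higher (0.82). The last is a share near the 6.55% of all genes called higher. Of the 4, Pick1 lost its call with at least 1 other scaling, and 2 to 3 genes were higher with the other scalings. The Shank1, Shank2, Ncdn, Elfn1, Elfn2, Grasp and Homer1 calls named here held with the 4 other scalings.

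**Figure D3:**
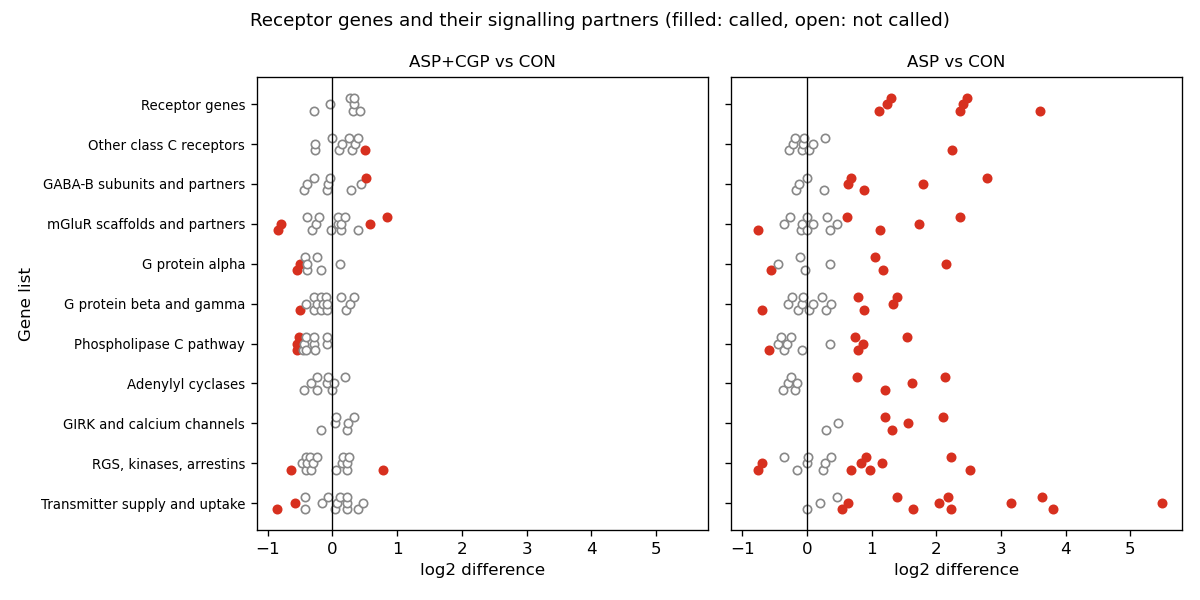
Log2 difference (x axis) of each tested gene in the receptor set and in 10 lists of partner genes (y axis), in ASP+CGP vs CON (left) and ASP vs CON (right). Filled points were called and open points were not, and points are spread vertically for legibility. In ASP vs CON all 7 receptor genes are filled, and the highest point, Slc6a11, lies at 5.48.

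Downstream of the receptors, the same direction was found in part of each list. Gnao1, the Go alpha subunit gene, was 4.43-fold higher in ASP, Gnaz 2.25-fold and Gnai1 2.07-fold, and these were the 3 of 8 alpha subunit genes called higher. Gna14, of the Gq class, was lower (-0.56), a call lost with at least 1 other scaling. Of 15 beta and gamma subunit genes, 4 rose, led by Gng3 (2.65-fold) and Gng2 (2.51-fold), and 1, Gnb3, fell, the last a share near that of all genes.

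Of 6 channel genes gated by the Gi/o arm, 4 were higher in ASP with a median of 1.26 (4 of 5 and 1.32 without Kcnj5, which passed the filter only through ASP). They were the presynaptic calcium channel genes Cacna1e (4.29-fold), Cacna1a (2.49-fold) and Cacna1b (2.30-fold), and Kcnj3 (2.97-fold), a GIRK channel subunit that GABA-B receptors open. Of 9 genes of adenylyl cyclases, the enzymes that make cyclic AMP, some of which Gi proteins inhibit, 4 were higher, namely Adcy2 (4.37-fold), Adcy8 (at least 2.04-fold), Adcy5 (2.30-fold) and Adcy1 (1.72-fold), and the list median was -0.15 (-0.15 to 0.03 over the other scalings). Adcy8 passed the filter only through ASP, and without it 3 of 8 were higher. On the Gq arm 4 of 12 rose and 1, Plcb1, fell (-0.58, a call lost with at least 1 other scaling). Those that rose were Prkcb (2.92-fold), Prkca (1.83-fold), Trpc1 (1.72-fold) and Prkce (1.67-fold), and the list median was -0.16, which turned to 0.02 with another scaling.

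Among 16 RGS proteins, receptor kinases and arrestins, which end receptor signals, 7 rose and 2 fell in ASP, with a median of 0.33. Rgs8 was 5.75-fold higher and Rgs7bp, which anchors the brain RGS complex to the membrane, 4.69-fold. Rgs8 was also higher in ASP+CGP than in CON (1.72-fold, log2 difference 0.78 ± 0.07, SE, limma adjusted p = 1.78e-06). Rgs7 was 2.24-fold higher in ASP, and Rgs11 had a log2 difference of -0.75.

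In ASP+CGP against ASP, these lists had no gene called higher, although each of the 4 other scalings called 1 higher in the beta and gamma list and 1 in the RGS, kinase and arrestin list, and some called up to 2 adenylyl cyclase genes and 1 gene of the Gq arm. Lower were 4 of 8 alpha subunit genes, led by Gnao1 (-2.33), 6 of 15 beta and gamma subunit genes, led by Gng3 (-1.55), and 8 of 16 RGS, kinase and arrestin genes, led by Rgs7bp (-2.06). Of the channel genes 4 of 6 were lower, led by Cacna1e (-1.76), and of the adenylyl cyclase genes 4 of 9, led by Adcy2 (-2.13). On the Gq arm 5 of 12 were lower, led by Prkcb (-1.83). The calls of Gnb5, Gng4, Gng13 and Grk3 were each lost with at least 1 other scaling.

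The genes that supply and clear the ligands of these receptors had 11 of 14 members higher in ASP and none lower, with a median of 1.84. Gad2 and Slc17a6 passed the filter only through ASP, and without them 9 of 12 were higher, with a median of 1.51. Slc6a11, a GABA transporter of astrocytes, was 44.7-fold higher in ASP than in CON. In ASP+CGP against ASP, 12 of the 14 were lower (10 of 12 without Gad2 and Slc17a6), led by Slc6a11 (-5.26), with the call of Slc6a12 lost with at least 1 other scaling. In CGP against CON, where 1.62% of all genes were called higher, 3 of the 14 were higher, the GABA transporter genes Slc6a13 (1.63-fold) and Slc6a12 (1.41-fold) and the glutamate transporter gene Slc1a2 (1.41-fold). The calls of Slc6a12 and Slc1a2 in CGP were each lost with at least 1 other scaling. Slc6a13 was lower in ASP+CGP than in CON (-0.85 ± 0.08, SE, limma adjusted p = 4.34e-06). No other list of partner genes had a gene called in CGP by limma.

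Markers of brain cells moved with the receptor genes in ASP. Their counts are to be read against 9.81% of all genes called higher and 8.13% lower in ASP vs CON, and 13.3% lower in ASP+CGP vs ASP. All 12 neuron markers were called higher (median log2 difference 1.92), with a summed linear signal of 19374 to 20494 on the ASP arrays and 4842 to 5078 on the CON arrays. All 7 tested oligodendrocyte markers were higher (median 2.84, summed signal 7872 to 8474 in ASP and 1548 to 1569 in CON), and so were all 6 astrocyte markers (2.34, 8196 to 9154 in ASP and 1751 to 1806 in CON). Of 8 hypothalamic neuron markers 7 were higher (2.57, 8584 to 9169 in ASP and 1173 to 1259 in CON). Nefm, Opalin, Ugt8a and Pmch passed the filter only through ASP, and without them 11 of 11 neuron, 5 of 5 oligodendrocyte and 6 of 7 hypothalamic markers were higher. Nefm, Opalin, Ugt8a, Aqp4 and Pmch, which belong to these lists, had CON means under 6, as Grm3 did, and ASP means between 6.94 and 9.63. Of these lists, all neuron, oligodendrocyte and astrocyte markers and 6 of the 8 hypothalamic markers were lower in ASP+CGP than in ASP. In ASP+CGP against CON, 3 of the 12 neuron markers, 1 of the 6 astrocyte markers and 2 of the 8 hypothalamic markers were higher, and no oligodendrocyte marker was called. Of all genes, 6.09% were called higher in that comparison and 8.32% lower. Among genes with a CON mean of 6 to 7, which include Gap43 (6.25) and Ntsr2 (6.62), 14.7% were called higher. The calls of Gap43 (neurons) and of Ntsr2, the astrocyte marker, were each lost with at least 1 other scaling, and up to 3 oligodendrocyte markers were called with another.

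The summed linear signal of the 7 receptor genes was 1149 to 1177 on the ASP+CGP arrays, 5516 to 5735 in ASP, 1066 to 1155 in CGP and 1122 to 1165 in CON. Such a sum gives most weight to the probe set with the highest signal, that of Gabbr1. In ASP+CGP against CON, Gabbr1 differed by -0.29 while 5 of the 7 genes were above 0, so small shifts either way partly cancel in it. Markers of the adrenal's own neural cells behaved otherwise, with none of 8 chromaffin cell markers called higher and 2 lower in ASP (median -0.40), and none of 3 Schwann cell markers called. None of 9 adrenal cortex markers was higher, and 2 were lower, Cyp11b2 and Nr5a1, the call of Nr5a1 being lost with at least 1 other scaling. Among 4 microglia markers 1 was higher (P2ry12, a call lost with at least 1 other scaling). Markers of other tissues also shifted, with 5 of 7 hepatocyte markers and 4 of 5 endothelial markers lower in ASP, the endothelial calls each lost with at least 1 other scaling, and 1 of 5 adipocyte markers lower (Lep, likewise lost). In ASP+CGP against CON, 6 of the 7 hepatocyte markers were lower (8.32% of all genes were). In CGP against CON 4 were higher (1.62% of all genes were), of which Alb lost its call with at least 1 other scaling. The part of these cell types in the receptor differences was not tested.

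**Figure D4:**
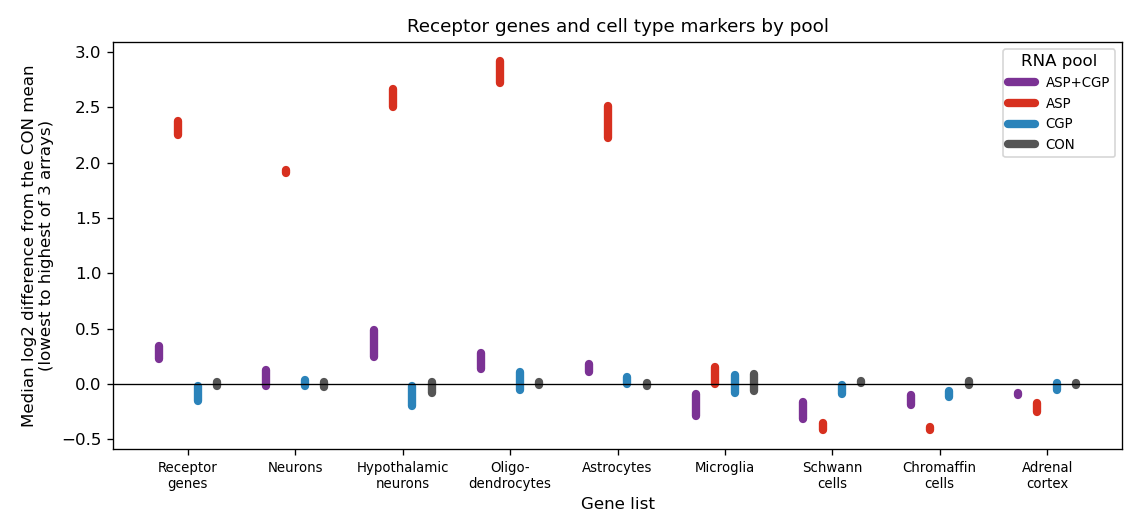
Median log2 difference from the CON mean (y axis) over the 7 receptor genes and over each list of cell type markers (x axis), by pool. Each bar runs from the lowest to the highest of the 3 arrays. The receptor genes, at 2.25 to 2.38 in ASP, stand with the neuron, hypothalamic, oligodendrocyte and astrocyte lists, and the chromaffin cell list lies below 0 in ASP.

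The genes whose pattern over the 12 arrays was most like that of each receptor gene were sought among 1288 genes with group means spanning at least 1 log2 unit. Since the ASP arrays stand apart from the other 9, Pearson's r mostly reflects that split and is given as a description only. Dnm1, Syt1 and Astn1 were nearest to Gabbr1 (r = 0.999 each), and Kcnc1, Kifc2 and Neto1 nearest to Gabbr2 (0.998 each). For Grm5 they were Grid1, Bmerb1 and Nrxn2 (0.997 to 0.998), and for Grm3 Mobp, Oprl1 and Camk2a (0.997 each). Grm4 was most like Slc6a7, Oxt and Rgs8 (0.992 to 0.995), and Grm7 most like Elovl4, Gatm and Lpcat4 (0.993 to 0.994). Grm2 had the lowest values (Ncan and Ptpn5 0.982, Golga7b 0.981).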

How the data were processed

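Adrenal RNA pools of 4 groups were each measured on 3 arrays. The authors deposited log2 signals by probe set, computed with RMA in Partek (background correction, quantile normalization at probe level, median polish). Their methods filter low values at 6, and each probe set of the table reaches 6 on at least 1 array. The genome build is not given in the sources used here. The table holds 26533 probe sets, 17710 listed with 1 gene, 1077 with several and 7746 with none. Where several single-gene probe sets read 1 gene, the brightest by mean over the arrays stood for it (16244 genes), and 344 genes with a mean under 6 in every pool were left out. An array gives no read depth, and precision is set by the number of arrays.

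limma 3.58.1 in R 4.3.3 fitted a mean per group over all 12 arrays (lmFit, eBayes), with Benjamini-Hochberg adjustment within each comparison. Genes were named by rule: all listed receptor genes, up to 4 called genes per partner list with the largest ASP vs CON difference, up to 2 per other comparison, and the 3 nearest genes per receptor gene. Kctd8, Kctd12, Casr, Grm6, Kcnj5, the marker genes and the members of counts of 5 or fewer were named after their values were seen. The receptor genes and all lists were chosen with earlier results of these data known. The procedure was tested on simulated data. Promoters came from RefSeq (GRCm38.p6). Probe sets with several genes or none were not used here, and 0 columns of the table were left out. The alternatives tried were other filters, scalings, tests, weights, thresholds, a replicate block and leaving out each array.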

Additional observations from a re-analysis of the deposited data

Results flagged for a closer look

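In the interaction, the ASP+CGP minus CGP difference minus the ASP minus CON difference, all 7 receptor genes were called lower. Over all genes, 15.5% were called lower and 9.02% higher. The interaction reuses the arrays of the ASP vs CON comparison, so it is not separate evidence. The log2 interaction was -3.41 for Gabbr2, -2.66 for Gabbr1, -2.07 for Grm3, -2.00 for Grm5, -1.10 for Grm7 and -0.79 for both Grm2 and Grm4. For Grm3, whose ASP+CGP, CGP and CON means were all dim, and for Grm4, whose CGP mean was dim, the value is not a measure of the full size. The groups hold 3 arrays each, so no single array was tested for standing apart from its group.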

How the results depend on the processing

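The number of receptor genes called did not change in ASP vs CON (7), CGP vs CON (0) or ASP+CGP vs ASP (7) under any alternative run, and was 5 for the interaction at a fold of 1.8. In ASP+CGP vs CON, 0 became 3 with median centring and 6 with no fold minimum. Of all 15900 genes, 2367 were called higher with that centring (969 without), and 11556 were called with no fold minimum (2292 otherwise). In ASP+CGP vs CGP, 1 became 4 with median centring, 6 with no fold minimum and 0 at a fold of 1.8, and leaving out 1 array gave 0 to 3. Over all genes, 2901 were called higher there with median centring (1363 without). With the other settings 12027, 422 and 2540 to 4089 were called, in the same order, against 3106. Signs turned only in differences that were not called. Median centring gave Grm7 0.13 in ASP+CGP vs CON. Cyclic loess gave Grm3 0.01 in CGP vs CON, Gabbr1 0.06 and Grm3 -0.01 in ASP+CGP vs CON, and Gabbr1 0.10, Grm3 -0.02 and Grm7 -0.01 in ASP+CGP vs CGP. Quantile normalization gave Gabbr1 0.01 in ASP+CGP vs CON, and Gabbr1 0.08 and Grm7 -0.12 in ASP+CGP vs CGP. Removing the trend with signal level, an alternative chosen after seeing the data, gave Grm3 0 in CGP vs CON, Gabbr1 0.05 in ASP+CGP vs CON, and Gabbr1 0.10 and Grm7 -0.02 in ASP+CGP vs CGP.

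Leaving out 1 array ran Gabbr1 from -0.08 to 0.01, Grm2 from -0.25 to 0.06, Grm3 from -0.07 to 0.05 and Grm7 from -0.13 to 0.01 in CGP vs CON. It ran Grm7 from -0.06 to 0.04 in ASP+CGP vs CON and from -0.04 to 0.10 in ASP+CGP vs CGP. The cause was not tested. Over all genes, scaling moved the share of calls that were higher. In ASP vs CON it was 54.7%, and 79.9% with cyclic loess. In ASP+CGP vs CON it was 42.3%, and 56.3% to 88.1% with other scalings, in ASP+CGP vs CGP 43.9% and 53% to 85.4%, in ASP+CGP vs ASP 32.9% and 22.6% to 63.2%, and in the interaction 36.7% and 26.7% to 65.9%. The genes called in ASP+CGP vs CON were 2292, and 1243 with cyclic loess, 1442 with quantile normalization and 1214 with the trend removed. Those in ASP+CGP vs CGP were 3106, and 1650, 1847 and 1653 in the same order. With no fold minimum and at a fold of 1.8, ASP vs CON had 8788 and 1076 genes called (2851 otherwise), CGP vs CON 479 and 92 (260), ASP+CGP vs CON 11556 and 191, ASP+CGP vs ASP 10027 and 1088 (3162), ASP+CGP vs CGP 12027 and 422, and the interaction 8175 and 1323 (3906).

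Deviations of same-numbered arrays correlated at 0.00281 to 0.19 for the first, -0.0103 to 0.379 for the second and -0.15 to 0.354 for the third. Those of differently numbered arrays were not compared, so whether the replicate numbers pair the arrays cannot be told from these values. With a replicate block the receptor genes called were 7 in ASP vs CON, 0 in CGP vs CON and 7 in ASP+CGP vs ASP, as without it. A fit of only the arrays compared cannot be made for the interaction. With 3 arrays of 1 pool per group, differences between mice stay unmeasured, and folds against dim means, such as those of Grm3, are bounds.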
